A study of Mus musculus with 8 samples.

Results

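Odc1, Srm, Ahcy, Hk2, Pkm and Ldha encode enzymes of polyamine synthesis, the methyl cycle and glycolysis. They were taken by gene name from the deposited table of FPKM values (fragments scaled by transcript length and by the mapped total of the library), and 6 of its 16434 genes carry these names. Poly(A) RNA was sequenced from 8 bone marrow libraries of C57BL/6 mice whose age is given as 8 to 10 weeks, with 1 library in each group. The leukaemias, from a study of N-Myc overexpression in mice, were B-ALL (B-cell acute lymphoblastic leukaemia, sorted as B220+GFP+), T-ALL (T-cell acute lymphoblastic leukaemia, CD3+GFP+), AML (acute myeloid leukaemia, Mac1+Gr1+GFP+) and AUL (acute undifferentiated leukaemia, B220-CD3-Mac1-Gr1-GFP+). Normal marrow of the same strain and age gave B cells (B220+), T cells (CD3+), myeloid cells (Mac1+Gr1+) and lineage-negative cells (B220-CD3-Mac1-Gr1-), all without a GFP sort. The labels give no promoter or vector for N-Myc and do not say whether animals were pooled.

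Ornithine decarboxylase, the product of Odc1, makes putrescine from ornithine and is the rate-limiting enzyme of polyamine synthesis. Spermidine synthase (Srm) adds an aminopropyl group taken from decarboxylated S-adenosylmethionine, and growing cells use the resulting polyamines to support translation. Adenosylhomocysteinase (Ahcy) clears S-adenosylhomocysteine, the product that inhibits methyltransferases. Hexokinase 2 (Hk2) traps glucose in the cell, pyruvate kinase M (Pkm) forms pyruvate in the last step of glycolysis, and lactate dehydrogenase A (Ldha) turns pyruvate into lactate. Odc1 and Ldha are textbook targets of MYC proteins, which with MAX bind the E-box CACGTG.

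Promoter windows are shown for 3 genes whose level was higher in every leukaemia, to show where the E-box letters do and do not occur. RefSeq on GRCm38.p6 gave 7 windows, each from 250 bases before to 50 bases after a transcript start, for 5 of the 6 genes. Srm had no window. Only the first Ldha window of the 7 held CACGTG, printed in capitals and equal to its own reverse complement. It held 2 copies, whose first bases lie at -145 and -48 from the start. Of all 32851 windows, 2349 (7.15%) held at least 1 copy and 195 (0.594%) held 2 or more. A match is a run of letters and not a measured binding site. Sequence outside these windows was not searched, so a gene without a match here may hold the letters elsewhere. The windows are Ldha at chr7:46845554-46845853 on the plus strand, Odc1 at chr12:17544623-17544922 on the plus strand and Ahcy at chr2:155074448-155074747 on the minus strand.
Ldha: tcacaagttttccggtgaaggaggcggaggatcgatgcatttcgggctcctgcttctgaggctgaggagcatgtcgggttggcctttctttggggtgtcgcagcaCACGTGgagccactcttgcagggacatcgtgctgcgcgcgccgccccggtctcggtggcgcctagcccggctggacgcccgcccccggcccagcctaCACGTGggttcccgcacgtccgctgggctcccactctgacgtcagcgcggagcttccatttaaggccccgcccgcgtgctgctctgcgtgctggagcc
Odc1: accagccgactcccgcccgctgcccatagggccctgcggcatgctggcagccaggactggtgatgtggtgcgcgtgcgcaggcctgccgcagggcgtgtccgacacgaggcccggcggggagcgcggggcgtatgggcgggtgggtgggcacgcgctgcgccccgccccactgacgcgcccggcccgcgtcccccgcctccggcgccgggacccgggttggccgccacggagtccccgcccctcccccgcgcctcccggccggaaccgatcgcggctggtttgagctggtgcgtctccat
Ahcy: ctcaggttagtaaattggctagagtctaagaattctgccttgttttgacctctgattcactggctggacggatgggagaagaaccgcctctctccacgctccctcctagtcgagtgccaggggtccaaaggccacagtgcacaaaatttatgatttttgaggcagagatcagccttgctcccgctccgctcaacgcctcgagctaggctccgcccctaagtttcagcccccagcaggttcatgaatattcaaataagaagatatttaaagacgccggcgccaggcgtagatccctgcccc

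The table places the genes on mm10 as follows. Odc1 (ENSMUSG00000011179) lies at chr12:17544873-17551502, Srm (ENSMUSG00000006442) at chr4:148591503-148594993 and Ahcy (ENSMUSG00000027597) at chr2:155059310-155074497. Hk2 (ENSMUSG00000000628) lies at chr6:82725025-82774454, Pkm (ENSMUSG00000032294) at chr9:59656368-59679375 and Ldha (ENSMUSG00000063229) at chr7:46841475-46855627. Some of their sequence also occurs elsewhere, and how the authors counted reads that match several genes is not given in the sources used here. Of the 75-base words of the longest GENCODE transcript, 74.4% for Ahcy, 30.5% for Odc1, 19.6% for Pkm and 5.23% for Ldha also occur in transcripts of other genes, and none for Srm or Hk2. Levels of the 4 genes with shared words are therefore uncertain. The Ahcy copy Gm4737 had 18.6 to 27.6 FPKM in the leukaemias and 1.77 to 12.3 in the normal libraries, so its leukaemia values lay above its normal values too. The values sum over all transcripts of a gene, so the M1 and M2 forms of Pkm cannot be told apart.

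Steps in the table's values gave 33818612 to 52280273 fragments per library. Among the 6 genes, the fewest fragments stood behind Srm in normal myeloid cells (504) and the most behind Pkm in the same library (120942). The normal myeloid library stood apart, where the 10 genes with most fragments held 15.0% of the total, against 4.01% to 4.95% elsewhere. Scaling by the median ratio over 11492 genes moved the AML difference by -0.86 on the log2 scale, and for the 6 enzymes and the list counts, values of the myeloid gate are given under both scalings where the call depends on it. Mycn had a mean log2 difference of 8.84 between leukaemia and normal libraries (limma, adjusted p = 0.0034), and its relative Myc one of -4.43 (adjusted p = 0.0326), lower in 4 of 4 gates. Over 6 T-cell genes the summed level was 2322 FPKM in T-ALL and 2572 in normal T cells, but the AUL library, sorted as CD3-, also had 1787, against 75.3 in normal lineage-negative cells. The 6 B-cell genes summed to 1785 FPKM (B-ALL) and 4168 (normal B cells), and normal T and lineage-negative cells had 630.3 and 649.7.

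Across the gates, all 4 leukaemias stood above all 4 normal libraries for Odc1, Srm, Ahcy and Ldha, and the groups overlapped for Hk2 and Pkm. Of 11071 genes, 16.0% had every leukaemia above every normal library and 10.5% had every leukaemia below. The same 4 of the 6 genes were free of overlap under median-ratio scaling and under scaling to a common sum. In limma, with log2(FPKM + 1) values and the gate as a block, Srm and Ahcy rose and the other 4 did not pass an adjusted p of 0.05. Of all genes fitted, 1.26% were called higher (140) and 2.42% lower (268); at an unadjusted p under 0.05, 17.6% were higher and 17.8% lower. The adjusted calls were 33 higher and 137 lower after scaling to a common sum. The median of the 6 mean log2 differences was 1.94, beside -0.08 over all genes. The 6 genes and the lists were chosen with earlier results of these data known. Setting them beside all genes, here and below, is therefore a description and no test. The calls of Srm and Ahcy were both lost when any 1 gate was left out, with adjusted p of 0.0602 to 0.124 for Srm and 0.0586 to 0.128 for Ahcy. They were also lost with no filter on low values, after scaling to a common sum, without the gate block and without the variance trend. The 4 pairs are sorted populations of different lineages rather than replicates. These p-values therefore set the mean difference against variation between gates and not between replicates. In addition, limma drew the variance of each gene toward a trend over all genes fitted.

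**Figure D1:**
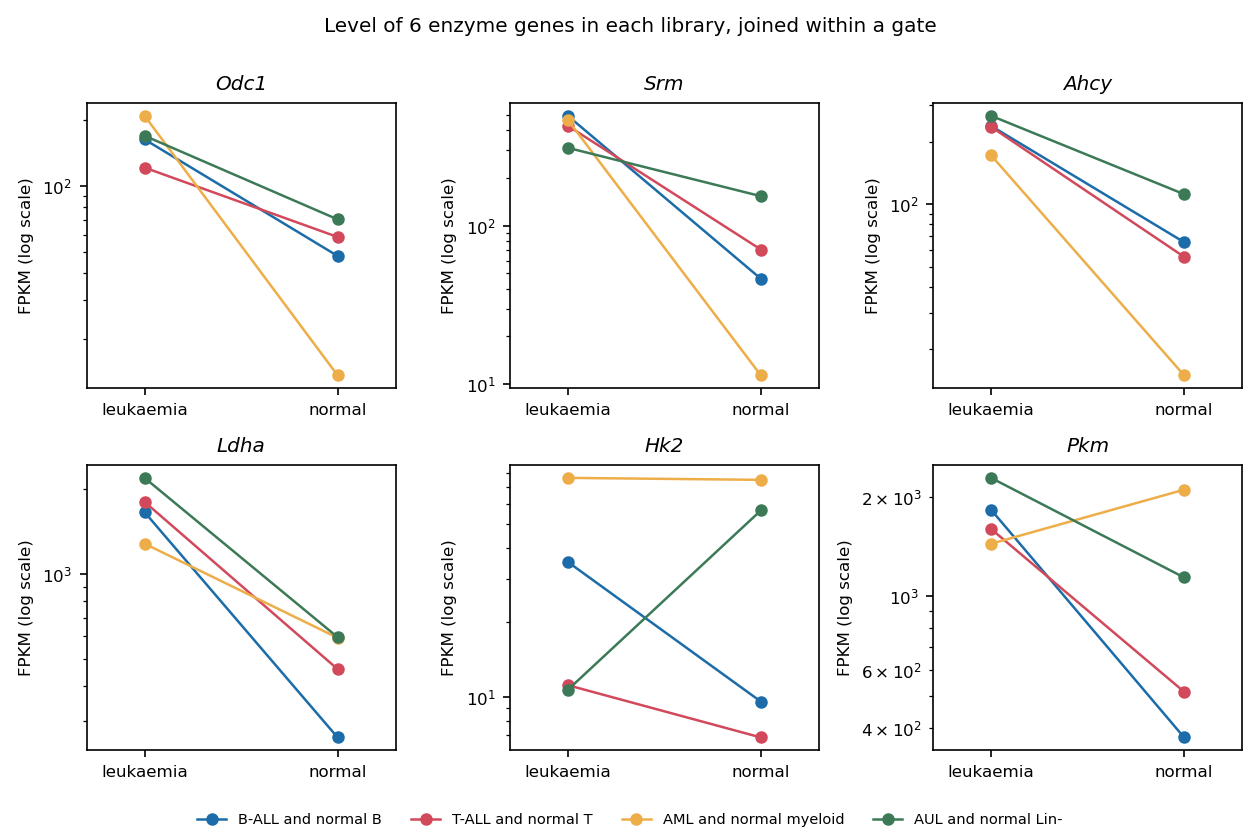
FPKM of the 6 genes in each library on a log scale, with leukaemia libraries left and normal libraries right in each panel, 1 point per library and a line joining the libraries of a gate. For Odc1, Srm, Ahcy and Ldha all 4 leukaemia points lie above all 4 normal points, whereas Hk2 spans 10.7 to 76.5 FPKM in leukaemias and 6.86 to 75.1 in normal libraries.

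Odc1 had 164 FPKM (B-ALL), 122 (T-ALL), 210.1 (AML) and 170.2 (AUL), against 48.0 in normal B, 58.6 in normal T, 13.6 in normal myeloid and 70.5 in normal lineage-negative cells. The leukaemias stayed within 1.73-fold of each other, the normal libraries within 5.17-fold, and normal myeloid cells were far below the rest. The lowest leukaemia, T-ALL, was 1.73-fold above the highest normal library. Within the gates the level was 3.42-fold higher in B-ALL (95% counting interval 3.25 to 3.58), 2.08-fold in T-ALL (1.98 to 2.18), 15.4-fold in AML (14.3 to 16.6) and 2.41-fold in AUL (2.32 to 2.52). The log2 difference of Odc1 in AML, 3.85 as deposited, was 3.03 under median-ratio scaling. In the order of levels no 2 neighbouring libraries had a ratio whose 95% counting interval held 1. The mean log2 difference was 1.98 ± 1.28 (SD, n = 4 gates; limma, SE 0.503, adjusted p = 0.0607), higher in 4 of 4 gates. Median-ratio scaling brought the adjusted p to 0.0473, and a filter at an FPKM of 5 to 0.0460.

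Srm had the widest gap of the 6 genes between a leukaemia and its normal gate. It had 492 FPKM (B-ALL), 426 (T-ALL), 463 (AML) and 309 (AUL), against 46.2 in normal B, 70.6 in normal T, 11.4 in normal myeloid and 153 in normal lineage-negative cells. The leukaemias spanned 1.59-fold and the normal libraries 13.5-fold, with AUL lowest among leukaemias and lineage-negative cells highest among normals. The level was 10.6-fold higher in B-ALL (10.1 to 11.2), 6.03-fold in T-ALL (5.76 to 6.30), 40.7-fold in AML (37.3 to 44.6) and 2.02-fold in AUL (1.95 to 2.09). The log2 difference of Srm in AML, 5.23 as deposited, was 4.41 under median-ratio scaling. As for Odc1, no ratio of neighbours in its order of levels had a counting interval that held 1. The mean log2 difference was 3.05 ± 1.76 (SD, n = 4 gates; limma, SE 0.629, adjusted p = 0.0483), and Srm was higher in 4 of 4 gates.

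Of 17 other polyamine genes listed, 12 were in the table and fitted, and the rest were not analysed here. In limma none of the 12 rose and 1 fell, whereas 4 were higher and 1 lower at an unadjusted p under 0.05, where 17.6% of all genes were higher and 17.8% lower. Their median difference was 0.51. The 1 that fell was Sat1, the acetyltransferase that starts polyamine breakdown and export. It had 67.1 FPKM (B-ALL), 27.1 (T-ALL), 208 (AML) and 49.4 (AUL), against 203 in normal B, 162 in normal T, 531 in normal myeloid and 259.6 in normal lineage-negative cells. Each leukaemia was below its own gate, although AML overlapped the normal B and T levels. Over the gates the mean log2 difference was -1.96 ± 0.584 (SD, n = 4 gates; limma, adjusted p = 0.0418). The call was lost when any 1 gate was left out (adjusted p of 0.0586 to 0.133), and also with no filter, a common sum, no gate block or no variance trend.

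Dohh and Eif5a, like Odc1 and Srm, had every leukaemia above every normal library under each of the 3 scalings. Sms and Amd1 did so under the deposited and median-ratio scalings, and overlapped after scaling to a common sum. These were 4 of the 12 other polyamine genes as deposited, beside 16.0% of all genes. Spermine synthase (Sms), the next enzyme after Srm, had 61.9 to 84.3 FPKM in leukaemias and 6.09 to 60.2 in normal libraries. Its log2 difference was 3.15 in AML, and B-ALL (0.48), T-ALL (0.54) and AUL (0.65) stayed under 1. Amd1, which makes the aminopropyl donor, had 64.6 to 114 FPKM in leukaemias and 16.4 to 64.1 in normal libraries, and AUL at 64.6 was level with normal lineage-negative cells at 64.1. Eif5a, the translation factor that carries the spermidine-derived residue hypusine, had 1925 to 2272 FPKM in leukaemias and 395 to 968 in normal libraries, with a mean log2 difference of 1.85 (limma, adjusted p = 0.0578). Dohh, the hydroxylase that completes hypusine, had 104 to 131 FPKM in leukaemias and 15.2 to 54.0 in normal libraries.

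Azin1, the antizyme inhibitor that spares ornithine decarboxylase from degradation, did not follow Odc1. It had 47.5 to 83.8 FPKM in leukaemias and 44.2 to 74.5 in normal libraries, with a mean log2 difference of -0.03. Oaz2, an antizyme, had 21.9 to 57.7 FPKM in leukaemias and 38.1 to 76.9 in normal libraries. The antizyme gene Oaz1 was not analysed here. Smox, which oxidises spermine, differed in sign between gates, with a log2 difference of -4.98 in AML and 0.35 in B-ALL.

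**Figure D2:**
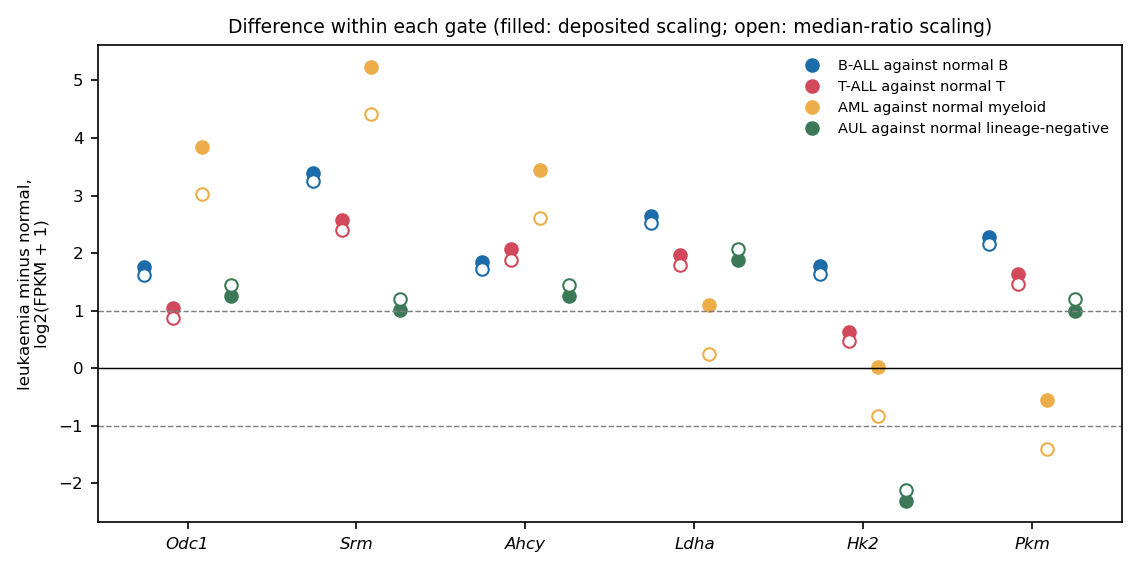
Log2(FPKM + 1) of the leukaemia minus that of the normal library in each gate, for the 6 genes, with filled points for the deposited scaling and open points for median-ratio scaling. Dashed lines mark a 2-fold difference in either direction. Srm in AML is the highest point at 5.23 and Hk2 in AUL the lowest at -2.30, and the AML points move down most under the other scaling.

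The difference for Ahcy varied less between gates than that for Odc1 or Srm. Ahcy had 239 FPKM (B-ALL), 236 (T-ALL), 172 (AML) and 267 (AUL), against 65.6 in normal B, 55.7 in normal T, 14.9 in normal myeloid and 112 in normal lineage-negative cells. As for Odc1 and Srm, normal myeloid cells were lowest and lineage-negative cells highest among the normal libraries, and the groups did not overlap. The level was 3.64-fold higher in B-ALL (3.49 to 3.79), 4.24-fold in T-ALL (4.05 to 4.43), 11.5-fold in AML (10.7 to 12.3) and 2.39-fold in AUL (2.31 to 2.47). The log2 difference of Ahcy in AML, 3.44 as deposited, was 2.61 under median-ratio scaling. B-ALL was 1.01 times T-ALL, with a counting interval that held 1 (0.985 to 1.04), and the other neighbours in the order differed by more than counting error. Averaged over gates, the log2 difference was 2.15 ± 0.927 (SD, n = 4 gates; limma, SE 0.420, adjusted p = 0.0429), higher in 4 of 4 gates.

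The list of methyl-cycle and methionine-salvage genes held 19 others, of which 17 were in the table and 12 passed the filter on low values (an FPKM of 1 or more in 2 or more libraries) and were fitted. In limma 1 of the 12 rose and none fell; 6 were higher at an unadjusted p under 0.05, beside 17.6% of all genes. The median of the 12 mean differences was 1.15. The 1 that rose was Mtap, the phosphorylase that recycles the methylthioadenosine released by spermidine and spermine synthase. Mtap had 61.7 FPKM (B-ALL), 70.9 (T-ALL), 25.1 (AML) and 66.0 (AUL), against 13.4 in normal B, 24.0 in normal T, 2.90 in normal myeloid and 20.9 in normal lineage-negative cells. Every leukaemia was above every normal library as deposited, with AML only just above normal T cells, and under median-ratio scaling AML (23.6) was just below normal T cells (23.9). Its mean log2 difference was 2.00 ± 0.561 (SD, n = 4 gates; limma, adjusted p = 0.0420). The call was lost when any 1 gate was left out (adjusted p of 0.0586 to 0.124), and also with no filter, a common sum or no gate block.

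Of the later salvage enzymes, Mri1, Adi1 and Enoph1 had no overlap between leukaemia and normal libraries under any of the 3 scalings. Mtr and Mtrr, which remake methionine from homocysteine, had none as deposited. Mtr overlapped after scaling to a common sum and Mtrr under median-ratio scaling. With Mtap, 6 of the 12 fitted genes had every leukaemia above every normal library as deposited, beside 16.0% of all genes. Mri1 had 65.5 to 115 FPKM in leukaemias and 6.71 to 53.0 in normal libraries, and Adi1 had 48.1 to 66.9 in leukaemias and 3.93 to 35.8 in normal libraries. Apip, another salvage enzyme, overlapped, with 17.2 to 28.2 FPKM in leukaemias and 11.6 to 34.0 in normal libraries. Its mean log2 difference was 0.20. Mat2a, which makes S-adenosylmethionine, overlapped, with 152 to 289 FPKM in leukaemias and 50.5 to 180.4 in normal libraries. Ahcyl1, a relative of Ahcy that is known as a regulator of calcium release, had 67.6 to 103 FPKM in leukaemias and 31.9 to 77.3 in normal libraries. Cth, which makes cysteine from cystathionine, had 0.156 to 39.9 FPKM in leukaemias, highest in AML, and 0.0286 to 0.451 in normal libraries.

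Ldha had 1654 FPKM (B-ALL), 1799 (T-ALL), 1279 (AML) and 2189 (AUL), against 263 in normal B, 459.8 in normal T, 594 in normal myeloid and 597 in normal lineage-negative cells. The lowest leukaemia was 2.14-fold above the highest normal library, but 1.18-fold under median-ratio scaling, where Srm had 2.31-fold. In each leukaemia Ldha ranked between 32 and 72 of all 16434 genes by FPKM. The level was 6.28-fold higher in B-ALL (6.15 to 6.42), 3.91-fold in T-ALL (3.85 to 3.98), 2.15-fold in AML (2.12 to 2.19) and 3.67-fold in AUL (3.62 to 3.72). Normal lineage-negative and normal myeloid cells were the only neighbours in its order whose ratio, 1.01, had a counting interval that held 1 (0.988 to 1.02). In AML the log2 difference of 1.11 became 0.24 under median-ratio scaling. In limma the mean log2 difference was 1.90 ± 0.630 (SD, n = 4 gates; limma, SE 0.434, adjusted p = 0.0545), higher in 4 of 4 gates. The adjusted p was 0.0402 with a pseudocount of 0.1 and 0.0380 with a filter at an FPKM of 5.

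Pkm was higher in B-ALL, T-ALL and AUL than in the normal cells of their gates, and lower in AML. It had 1829 FPKM (B-ALL), 1599.6 (T-ALL), 1443 (AML) and 2284 (AUL), against 374 in normal B, 514 in normal T, 2103 in normal myeloid and 1140.3 in normal lineage-negative cells. Normal myeloid cells were second only to AUL, so the groups overlapped, and neighbours in the order all differed by more than counting error. The level was 4.89-fold higher in B-ALL (4.81 to 4.98), 3.11-fold in T-ALL (3.07 to 3.16) and 2.00-fold in AUL (1.98 to 2.02), and 1.46-fold lower in AML (1.44 to 1.47). Under median-ratio scaling the AML log2 difference of -0.54 became -1.41, past the 2-fold limit. Averaged over gates, the log2 difference was 1.10 ± 1.21 (SD, n = 4 gates; limma, SE 0.558, adjusted p = 0.188).

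Hk2 was higher in some leukaemias, and lower in AUL, than in the normal cells of their gates. It had 35.1 FPKM (B-ALL), 11.2 (T-ALL), 76.5 (AML) and 10.7 (AUL), against 9.58 in normal B, 6.86 in normal T, 75.1 in normal myeloid and 56.5 in normal lineage-negative cells. The level was 3.66-fold higher in B-ALL (3.40 to 3.94), 1.63-fold higher in T-ALL (1.47 to 1.80), 1.02 times normal in AML (0.988 to 1.05) and 5.29-fold lower in AUL (4.93 to 5.70). The log2 difference of Hk2 in AML, 0.03 as deposited, was -0.83 under median-ratio scaling, which is lower but within the 2-fold limit. T-ALL was 1.04 times AUL, with a counting interval that held 1 (0.955 to 1.14), and apart from this pair and the myeloid gate the neighbours in the order differed by more than counting error. Over the gates the mean log2 difference was 0.03 ± 1.71 (SD, n = 4 gates; limma, SE 0.629, adjusted p = 0.971), and it was -0.21 under median-ratio scaling.

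The 4 libraries with most Hk2 were also the 4 with the highest summed level of 6 neutrophil genes. The same did not hold for the listed promyelocyte, monocyte or progenitor genes. That sum was 7351 FPKM (B-ALL), 1098 (T-ALL), 7560 (AML) and 1406 (AUL), against 1620 in normal B, 633 in normal T, 107443 in normal myeloid and 12753 in normal lineage-negative cells. All 6 of 6 neutrophil genes were in the table and none was at 0 in any library. In these sorted samples fewer cells of a type and less RNA per cell cannot be told apart. The part of neutrophil RNA in the Hk2 differences was not tested.

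By FPKM, Hk2 took a larger share of the hexokinase RNA in each leukaemia than in the normal cells of its gate. Of the summed FPKM of Hk1, Hk2 and Hk3, Hk2 made up 38.5% (B-ALL), 8.84% (T-ALL), 27.9% (AML) and 16.1% (AUL), against 12.6% in normal B, 4.75% in normal T, 11.1% in normal myeloid and 13.7% in normal lineage-negative cells. The total itself was 91.1 FPKM (B-ALL), 126 (T-ALL), 274 (AML) and 66.3 (AUL), against 75.7 in normal B, 144.5 in normal T, 679 in normal myeloid and 413 in normal lineage-negative cells. Hk1, the widely expressed form, was lower in 4 of 4 leukaemias than in their gates, with a mean log2 difference of -1.04 (limma, adjusted p = 0.0962). Hk3, the form of myeloid cells, had 6.93 FPKM in AUL against 198 in normal lineage-negative cells and 142 in AML against 465 in normal myeloid cells.

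**Figure D3:**
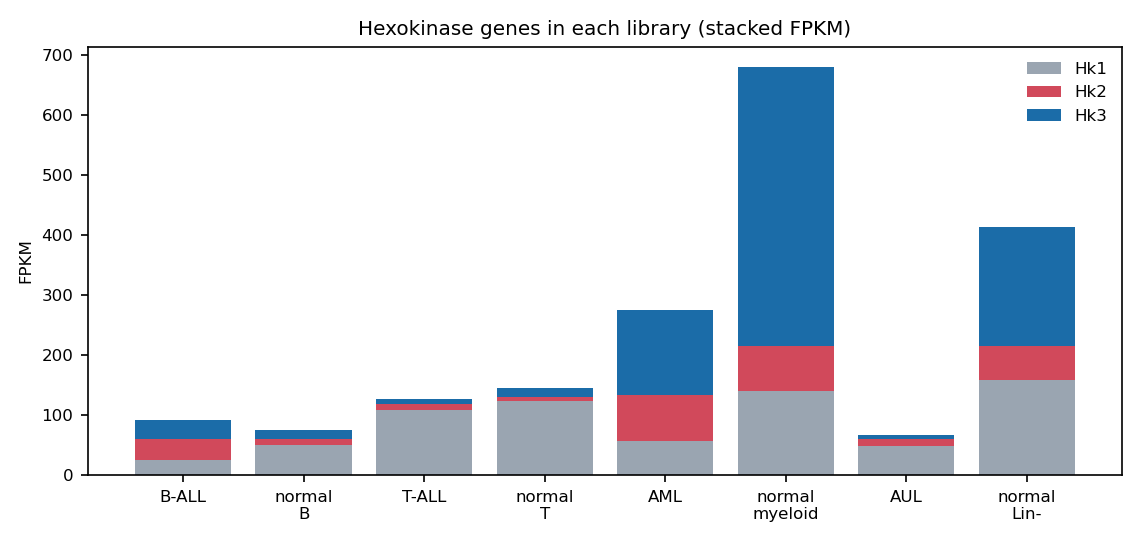
Stacked FPKM of Hk1, Hk2 and Hk3 in each library, with each leukaemia left of the normal library of its gate. The normal myeloid bar is the tallest at 679 FPKM and is mostly Hk3, and the AUL bar at 66.3 is the shortest.

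Of 40 other genes listed for glycolysis with its entry and exit steps, 35 were in the table and 34 were fitted. In limma none of the 34 passed in either direction, and at an unadjusted p under 0.05 there were 11 higher and 4 lower, beside 17.6% and 17.8% of all genes. The count that rose was 2 with a pseudocount of 0.1 and 3 with a filter at an FPKM of 5. The median difference of the 34 was 0.61. Tpi1, Slc16a1 and Pdha1 had every leukaemia above every normal library under the 3 scalings, as Ldha did. Pfkfb1 and Eno1 did so as deposited and after scaling to a common sum, and overlapped under median-ratio scaling. These were 5 of the 34 genes as deposited, beside 16.0% of all genes. Pdha1 was only just apart, with 105 FPKM in the lowest leukaemia and 102 in the highest normal library. So was Pfkfb1, with 2.17 and 2.11 FPKM. Triosephosphate isomerase (Tpi1) had 529 to 804 FPKM in leukaemias and 111 to 366 in normal libraries, with a mean log2 difference of 1.83 (limma, adjusted p = 0.0538). Enolase 1 (Eno1) had 1487 to 2685 FPKM in leukaemias and 299 to 1028 in normal libraries, with a mean log2 difference of 1.75 (limma, adjusted p = 0.0582). The level of Eno1 is uncertain, because 65.4% of its 75-base words occur in other genes.

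Glucose and lactate transporters did not all follow Ldha. Slc16a1, a lactate transporter, had 25.5 to 59.2 FPKM in leukaemias and 1.14 to 18.8 in normal libraries, with a mean log2 difference of 2.09 (limma, adjusted p = 0.0714). Slc16a3, the other lactate transporter of the list, was 5.47-fold higher in B-ALL and 3.32-fold lower in AML and 3.39-fold lower in AUL than in the normal cells of those gates. The glucose transporter Slc2a1 was lower in 4 of 4 leukaemias than in their gates, with a mean log2 difference of -0.60. Slc2a3, another glucose transporter, had 71.5 FPKM in AML against 578 in normal myeloid cells.

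**Figure D4:**
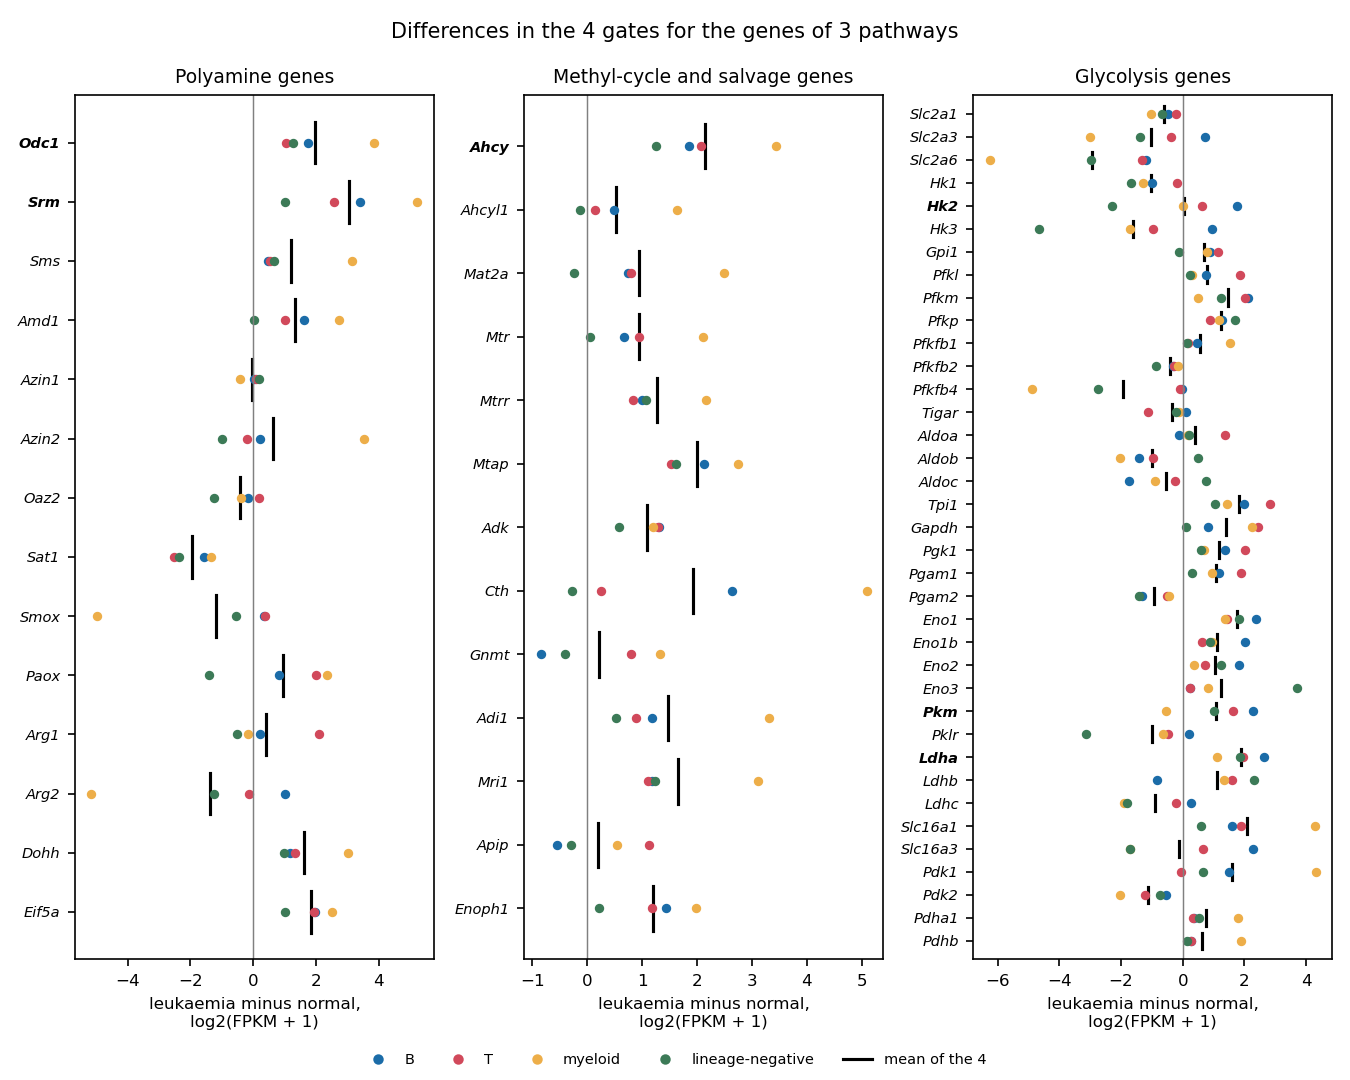
Difference of log2(FPKM + 1), leukaemia minus normal, for the fitted genes of the polyamine, methyl-cycle and glycolysis lists, with 1 coloured point per gate, a black bar at the mean and the 6 genes in bold. Sat1 has all 4 points below 0, Mtap all 4 above 0, and Hk2 has points on both sides from -2.30 to 1.77.

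By the 2-fold rule within a gate, which has no test, 6 of the 6 genes were higher in B-ALL, where 18.2% of genes were higher and 21.9% lower. In T-ALL 5 were higher and Hk2 was neither, against 22.1% of genes higher and 24.0% lower. In AML 4 were higher and Hk2 and Pkm were neither, against 43.3% of genes higher (4311) and 26.7% lower (2662). Under median-ratio scaling the split over all genes became 2845 higher and 4270 lower. Ldha in AML then had a log2 difference of 0.24, under the 2-fold limit, and Pkm one of -1.41, past it. In AUL 5 were higher and Hk2 was lower, against 13.6% of genes higher and 29.5% lower. Median-ratio scaling also took Odc1 in T-ALL to a log2 difference of 0.87, and scaling to a common sum took Srm in AUL to 0.93 and Pkm in AUL to 0.92, all under the 2-fold limit of 1. The median log2 difference of the 6 genes as deposited was 2.07 beside -0.02 over all genes in B-ALL and 1.80 beside 0.03 in T-ALL. It was 2.27 beside 0.56 in AML and 1.13 beside -0.18 in AUL. Under median-ratio scaling the median over all genes in AML was -0.35.

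Among the other polyamine genes, the 2-fold rule called 4 higher and 1 lower of 10 in B-ALL, 5 higher and 1 lower of 10 in T-ALL, 6 higher and 3 lower of 11 in AML, and 1 higher and 5 lower of 12 in AUL. The other methyl-cycle genes had 6 higher of 12 in B-ALL, 5 of 11 in T-ALL, 12 of 13 in AML and 3 of 11 in AUL, with none lower in any gate. The other glycolysis genes had 11 higher and 4 lower of 33 in B-ALL, 12 higher and 3 lower of 32 in T-ALL, 10 higher and 10 lower of 32 in AML, and 7 higher and 9 lower of 34 in AUL. Over all genes, 18.2% were higher and 21.9% lower in B-ALL, and 22.1% and 24.0% in T-ALL. The shares were 43.3% higher and 26.7% lower in AML, and 13.6% and 29.5% in AUL. Under median-ratio scaling the AML counts became 6 higher and 5 lower of 11 for polyamine and 9 higher of 13 for methyl-cycle genes. For glycolysis genes they became 4 higher and 12 lower of 32. Over all genes that scaling gave 2845 higher and 4270 lower in AML. The same scaling left 2 of 11 methyl-cycle genes higher in T-ALL and 2 of 10 polyamine genes higher in AUL. Of all genes it left 1885 higher in T-ALL and 1914 in AUL. Of 8 proliferation genes measured beside them, none passed limma and 5 were higher at an unadjusted p under 0.05, beside 17.6% of all genes, with a median difference of 1.11. Their summed level was 1633 to 2575 FPKM in leukaemias and 631 to 1939 in normal libraries, and its part in the differences of the enzymes was not tested.

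Ratios of genes within a library do not depend on how libraries were scaled, and 9 were compared over the 4 gates with a sign-flip permutation test that was exact and two-sided. The smallest p that 4 pairs can give is 0.13, so none could pass 0.05. Srm to Sms was 4.90 to 7.49 in leukaemias and 0.768 to 3.84 in normal libraries, so the ratio did not overlap between groups; the mean log2 difference was 1.85 ± 1.07 (SD, n = 4), with an exact p of 0.13 (0.19 adjusted over the 9). Odc1 to Azin1 was 2.03 to 3.98 in leukaemias and 0.189 to 1.33 in normal libraries, also without overlap. Ahcy to Ahcyl1 was 1.71 to 3.78 in leukaemias and 0.469 to 1.45 in normal libraries, and Ahcy to Mat2a was 0.596 to 1.76 in leukaemias and 0.296 to 0.619 in normal libraries. These ratios were higher in the leukaemia of 4 of 4 gates, each at the exact p of 0.13.

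Ldha to Pkm was 0.887 to 1.12 in leukaemias and 0.282 to 0.895 in normal libraries, and it was higher in 4 of 4 gates with a mean log2 difference of 0.80 ± 0.617 (SD, n = 4; exact p = 0.13). Hk2 to Hk3 was 0.540 to 1.54 in leukaemias and 0.162 to 0.608 in normal libraries, higher in 4 of 4 gates (exact p = 0.13). Hk2 to Hk1 was higher in 3 of 4 gates (exact p = 0.25), Ldha to Ldhb in 2 of 4 (exact p = 0.75) and Pkm to Gapdh in 2 of 4 (exact p = 0.875). Ldha nonetheless made up at least 93.8% of the summed FPKM of Ldha and Ldhb in every library. Gapdh values are uncertain, since 22.8% of its 75-base words occur in 111 other genes. Of the genes known to favour the M2 form of Pkm by splicing, Ptbp1 had a mean log2 difference of 1.10 and Hnrnpa1 of 1.17 (limma, adjusted p = 0.101 and 0.117).

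Profiles over the 8 libraries were compared by the root mean square difference of centred log2(FPKM + 1) values, where 0 means the same profile. Among the 6 genes, Odc1 and Ahcy were most alike (0.390) and Srm and Hk2 least alike (2.28), and Ldha and Pkm differed by 0.603. Among 9288 other named genes, Odc1 was nearest to Bcap29 (0.146) and Trap1 (0.155). Srm was nearest to Slc19a1 (0.2) and Uck2 (0.250), and Ahcy to Nifk (0.125) and Thg1l (0.146). Ldha was nearest to Tpi-rs11 (0.344) and to Ldha-ps2 (0.347), which shares sequence with it. Pkm was nearest to Txn1 (0.325) and Atxn10 (0.341), and Hk2 to Acot1 (0.318) and Prkar2b (0.457). These values describe 8 libraries and carry no test.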

How the data were processed

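The deposited table holds FPKM values made by the authors for 16434 genes in 8 libraries, 1 per group, with no counts. Per the labels' protocols, RNA was captured on oligo(dT) beads, copied from random primers, sequenced as read pairs and compared with mm10. Per the submitters' processing notes, STAR, HTSeq and edgeR were used, with no versions or settings. How genes entered the table is not given in the sources used here. Groups were taken from the sample titles, and each leukaemia was paired with the normal cells of its gate, a pairing by sort and not by animal.

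Values were compared as log2(FPKM + 1), which understates differences of low genes, whereas folds are ratios of FPKM. limma 3.58.1 (R 4.3.3) was fitted to genes that reached an FPKM of 1 in 2 or more libraries, with gate as a block (3 residual degrees of freedom), a variance trend and Benjamini-Hochberg adjustment over 11071 genes. Within a gate, genes with an absolute log2 difference of at least 1, and an FPKM of 1 or more in the library with more, were called. The fit was tested on simulated data. Deposited FPKM times mean GENCODE vM21 transcript length fell within 0.02 of whole fragments for 95.9% to 96.7% of low values of single-transcript genes, which gave fragment totals and 95% Poisson intervals. These cover counting error only and are approximate for Odc1, Ldha and Pkm, whose fragments did not come out whole.

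Named genes are the 6 enzymes, the listed pathway genes, Mycn and Myc, and the 2 genes nearest each enzyme in profile. The members and lists were chosen with earlier results of these data known. The alternatives were another pseudocount (0.1), filter (none, or FPKM of at least 5), scaling (median ratio, common sum), no gate block, no trend, and each gate left out.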

Additional observations from a re-analysis of the deposited data

Results flagged for a closer look

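Hk2 moved in opposite directions in 2 gates. Its log2 difference was 1.77 in B-ALL against normal B cells and -2.30 in AUL against normal lineage-negative cells, which are 4.07 apart, and with 1 library in each group this difference was not tested. Hk2 had 10.7 FPKM in AUL and 56.5 FPKM in normal lineage-negative cells. The sum of 4 promyelocyte genes was 98.8 FPKM in AUL and 10360 FPKM in normal lineage-negative cells. In the B gate that sum was lower in B-ALL (331 FPKM) than in normal B cells (609 FPKM), while Hk2 was higher in B-ALL. The sum of 6 neutrophil genes was higher in B-ALL (7351 FPKM) than in normal B cells (1620 FPKM). It was lower in AUL (1406 FPKM) than in normal lineage-negative cells (12753 FPKM). The sums of the listed monocyte and progenitor genes were lower in both leukaemias than in the normal cells of their gates. The part of promyelocytes, neutrophils or other cells in the Hk2 differences was not tested. In a check of 18 groups of 4 values for a sample far from the others, none passed, where chance gives about 1 in 20. With 1 library in each group, this check cannot tell an outlying sample from a difference between cell types.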

How the results depend on the processing

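Odc1, Srm, Ahcy, Ldha and Pkm kept their direction over the gates under all 11 alternatives to the limma fit. Srm and Ahcy passed in 3 of the 11 and Odc1 and Ldha in 2, whereas Pkm and Hk2 passed in none. Against 140 genes higher and 268 lower, limma called 309 and 530 with a pseudocount of 0.1, 3 and 0 with no filter (4366 at an unadjusted p under 0.05), 434 and 507 with FPKM of at least 5, 354 and 566 with median-ratio scaling, 33 and 137 with a common sum, 8 and 33 with no gate block, and 72 and 214 with no trend. Without 1 gate the counts were 0 to 11 higher and 0 to 162 lower, both 0 without the myeloid gate, where 3552 genes had an unadjusted p under 0.05. The mean log2 difference of Srm stayed 3.05 and lost its call with no filter (adjusted p = 0.103), with no gate block (0.0648) and with no trend (0.0560), and was 3.07 with a common sum (0.0597). That of Ahcy stayed 2.15 and lost its call with no filter (0.0954), no gate block (0.0699) and no trend (0.0538), and was 2.18 with a common sum (0.0567). Odc1 passed with FPKM of at least 5 (1.98, limma adjusted p = 0.0460) and with median-ratio scaling (1.74, 0.0473). Ldha passed with a pseudocount of 0.1 (1.90, 0.0402) and with FPKM of at least 5 (1.90, 0.0380). Without 1 gate the mean was 2.32 to 3.73 for Srm, 1.72 to 2.45 for Ahcy and -0.55 to 0.81 for Hk2. Hk2 turned negative with median-ratio scaling (-0.21), without the B gate (-0.55) and without the T gate (-0.17). The cause of these changes was not tested. The smallest number of fragments behind a value of the 6 genes was 504. Pairings other than by gate were not tried. In AUL, Hk2 (10.7 FPKM) was below normal lineage-negative cells (56.5) but above normal T cells (6.86).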
